A study of Mus musculus with 36 samples.

Results

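The proteases that cut the extracellular matrix and the lysosomal content of the lung, together with the inhibitor families that hold them in check, were followed through 3 weeks of hypobaric hypoxia and the return to sea-level pressure. A gene was included when its single symbol on the array named a matrix metalloproteinase (Mmp), a tissue inhibitor of metalloproteinases (Timp), an ADAM or ADAMTS metalloproteinase, a cathepsin (Cts) or a serpin. This rule took 39 of 6971 named genes, 23 members of the protease families and 16 members of the inhibitor families, on 52 spots. The 23 are called proteases here, although Adamtsl1 among them has no protease domain. A further spot carried several symbols, a matching one among them, and was not used. Serpinb9 had values on 2 arrays alone and could not be tested, which left 38 genes.

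Each spotted 2-colour cDNA array set a pool of whole-lung RNA from 5 hypoxic BALB/c mice against a pool from 5 control mice of the same day. The hypoxic mice lived at 0.5 atm for 1, 3, 7, 14 or 21 days (the hypoxia phase), or for 21 days and were then kept at sea-level pressure for 1, 3, 7 or 14 days, which are days 22, 24, 28 and 35 of the experiment (the recovery phase). Every day had 4 arrays, 36 in all, and the labels give no age, sex or dye swap. Every value is a log2 ratio of hypoxic over control lung as the authors normalised it, 0 meaning no difference from control. The direction rests on the labelling protocol, which pairs the hypoxic RNA with Cy5, so that positive values probably, though not certainly, mean higher in hypoxic lung.

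Matrix metalloproteinases and ADAMTS enzymes are zinc proteases that cut collagens, proteoglycans and other matrix proteins outside the cell, while ADAMs are mostly membrane-bound and release the outer parts of growth factors and receptors. Cathepsins work mainly in lysosomes, and macrophages are rich in them. TIMPs block the metalloproteinases, and serpins trap serine proteases in an irreversible complex, those of clade B mostly inside cells, although some serpins inhibit no protease at all. In hypoxic pulmonary hypertension the walls of small pulmonary arteries thicken and gain matrix, and matrix turnover is part of that remodelling.

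Between 14186 and 15042 of the 15388 spots had a value on an array, and the SD of an array's log2 ratios was 0.17 to 0.52. Within a day, replicates 1 and 2 resembled each other, as did replicates 3 and 4 (median correlation over 7556 features with a value on every array 0.73), more than arrays across these pairs did (0.39). The labels do not say what the pairs share, so values of each pair are given beside the results they touch. The labels describe 1 pool per condition and day and name no separate animals for the 4 arrays, so for single days a p-value reflects the scatter among arrays, which may be technical. Phase means were therefore tested over days. An adjusted p below 0.05 in limma, Benjamini-Hochberg adjusted over all features on the array, is meant wherever a gene is said to pass, to rise or to fall.

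Over the hypoxia phase 14 of the 38 genes passed, 5 higher and 9 lower in hypoxic lung. That is 36.8% of them, against 42.4% of all 12159 features tested, so these genes were no more often changed than the array as a whole. In all features 24.7% were higher and 17.7% lower. The genes that rose were Serpinh1 (0.56), Mmp2 (0.49), Adamts1 (0.47), Adamts17 (0.21) and Adam15 (0.21). Those that fell were Serpinb9c (-0.51), Adam17 (-0.36), Serpinb9b (-0.35), Serpinb1a (-0.32), Serpinb6c (-0.31), Timp3 (-0.23), Serpinb1c (-0.22), Ctsc (-0.16) and Adam10 (-0.13). Among the proteases 4 of 23 were higher and 3 lower, and among the 15 tested members of the inhibitor families 1 was higher and 6 were lower. The 1 that rose, Serpinh1, belongs to the serpin family by structure but is a collagen chaperone of the endoplasmic reticulum and not a protease inhibitor. The median phase mean was 0.03 for the proteases and -0.01 for the inhibitor families, beside 0.03 for all features.

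**Figure D1:**
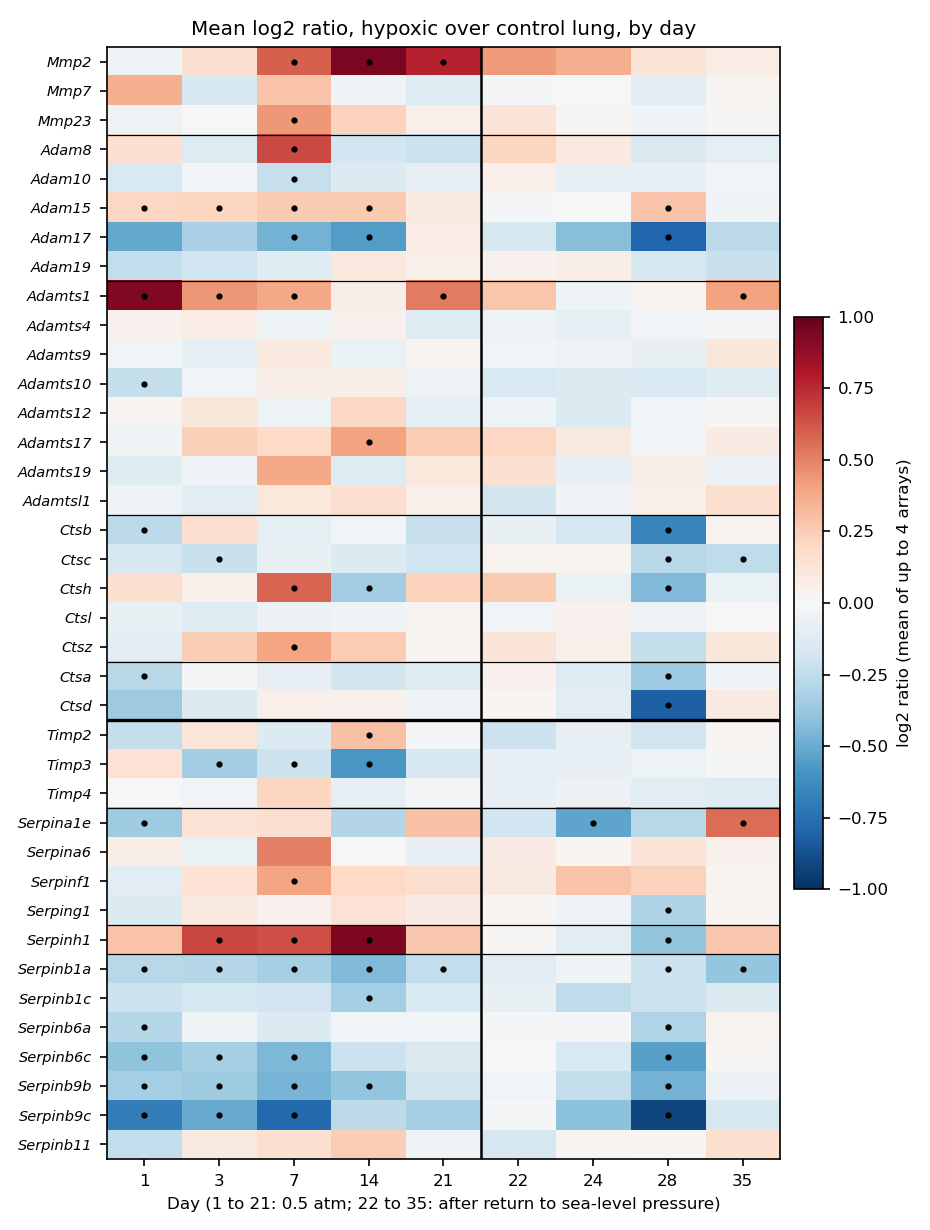
Mean log2 ratio of hypoxic over control lung for 38 genes (rows, proteases above the thick line, TIMPs and serpins below it) on 9 days (columns), red higher and blue lower in hypoxic lung, with a dot where the day passed at an adjusted p below 0.05 in limma on the arrays. Mmp2 reached 0.94 on day 14, Adamts1 0.93 on day 1, and Serpinb9c -0.92 on day 28; Adam17 on day 1 and Serpina6 on day 7 had 2 arrays each, which are shown and were not tested.

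The promoters of 3 genes that passed, each from another family, are shown for reference: Serpinh1, high on days 3 to 14, Adamts1, highest on day 1, and Timp3, lowest on day 14. They run over 250 bases before and 50 bases after the transcription start in RefSeq (GRCm38.p6), 5′ to 3′ on the gene's own strand, at chr7:99353190-99353489 (minus strand), chr16:85803064-85803363 (minus strand) and chr10:86300162-86300461 (plus strand). Capitals mark matches, on either strand, to the hypoxia-response core ACGTG or GCGTG, the letters that hypoxia-inducible factors are known to bind, or to the AP-1 motif TGANTCA.
Serpinh1: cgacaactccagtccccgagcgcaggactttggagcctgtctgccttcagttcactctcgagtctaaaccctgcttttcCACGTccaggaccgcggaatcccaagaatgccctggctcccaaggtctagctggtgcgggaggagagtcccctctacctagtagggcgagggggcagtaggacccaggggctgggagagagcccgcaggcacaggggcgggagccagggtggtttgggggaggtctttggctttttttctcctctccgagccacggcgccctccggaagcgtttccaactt
Adamts1: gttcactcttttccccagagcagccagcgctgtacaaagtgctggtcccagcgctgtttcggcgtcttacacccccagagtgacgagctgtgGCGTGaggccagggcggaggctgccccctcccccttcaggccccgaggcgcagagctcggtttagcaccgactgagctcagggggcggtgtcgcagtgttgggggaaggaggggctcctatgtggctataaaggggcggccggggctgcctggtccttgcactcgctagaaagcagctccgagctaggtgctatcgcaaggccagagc
Timp3: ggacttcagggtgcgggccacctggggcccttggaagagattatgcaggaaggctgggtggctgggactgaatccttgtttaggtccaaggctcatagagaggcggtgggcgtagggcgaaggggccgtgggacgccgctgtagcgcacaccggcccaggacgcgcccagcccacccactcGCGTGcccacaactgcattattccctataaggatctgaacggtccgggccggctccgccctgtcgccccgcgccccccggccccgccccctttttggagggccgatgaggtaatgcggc
Each holds 1 match to the hypoxia-response core, 171 bases before the start in Serpinh1, 158 in Adamts1 and 69 in Timp3, and none to TGANTCA. RefSeq promoters were matched for 29 of the 39 genes and for 12 of the 14 that passed, all but Mmp2 and Serpinb1a. ACGTG or GCGTG stood in 20 of these 29, and in 10 of the 12, against 46.7% of 27025 genes with a promoter in the table. Taken singly, ACGTG stood in 9 of the 29 and in 21.8% of all genes, and GCGTG in 17 and 35.2%. The 10 genes include 4 that were higher and 6 that were lower in hypoxic lung (the 2 without a match being Serpinb1c and Serpinb9b). TGANTCA stood in 3 of the 29 (Adam19, Mmp7 and Serpinb11), in none of the 12 and in 8.97% of all genes. These are matches of letters within the window and do not show that a factor binds there. The genes compared were all those with a promoter, not only those on the array. Neither base composition nor the number of promoters per gene was matched.

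Of the 3 matrix metalloproteinases, Mmp2 alone passed. Mmp2, or gelatinase A, cuts denatured collagen and basement membrane collagen and is made largely by fibroblasts and smooth muscle. Over the 20 hypoxia arrays its log2 ratio ran from -0.61 through a median of 0.65 to a highest value of 1.26, with 16 arrays above 0. Its day means were -0.05, 0.16, 0.60, 0.94 and 0.77 on days 1, 3, 7, 14 and 21, and 0.42, 0.36, 0.13 and 0.07 on days 22, 24, 28 and 35. It was thus close to control on the first day of hypoxia, highest at 2 to 3 weeks and lower on each recovery day than on the one before it. On day 14 the 4 arrays read 1.26, 0.83, 0.93 and 0.75, and on day 21 they read 1.04, 0.74, 0.60 and 0.70, so no array of those days lay near 0. On day 3 they did not agree, at 0.69, -0.61, 0.26 and 0.32. The phase mean was 0.49 ± 0.42 (SD over 5 days), or 1.40-fold, with an adjusted p of 0.0063, and days 7 (adjusted p = 0.00013), 14 (2.5e-07) and 21 (5.2e-05) passed singly. Since its day 1 mean lay below 0, Mmp2 did not keep 1 sign throughout. Replicates 1 and 2 gave 0.56 and replicates 3 and 4 gave 0.41, both passing. Over recovery it averaged 0.25 ± 0.17 (SD over 4 days; adjusted p = 0.22).

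Mmp7, or matrilysin, an epithelial enzyme, averaged 0.06 over hypoxia and -0.02 over recovery, and Mmp23, a membrane-anchored member of the family, averaged 0.13 and 0.03. Neither passed over a phase. Mmp23 was higher on day 7 alone (0.47, 0.55, 0.46 and 0.27 on the 4 arrays; adjusted p = 0.0015). The Mmp7 means hide a split between the array pairs: -0.35 in replicates 1 and 2 and 0.45 in replicates 3 and 4, each passing in its own fit with opposite sign.

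**Figure D2:**
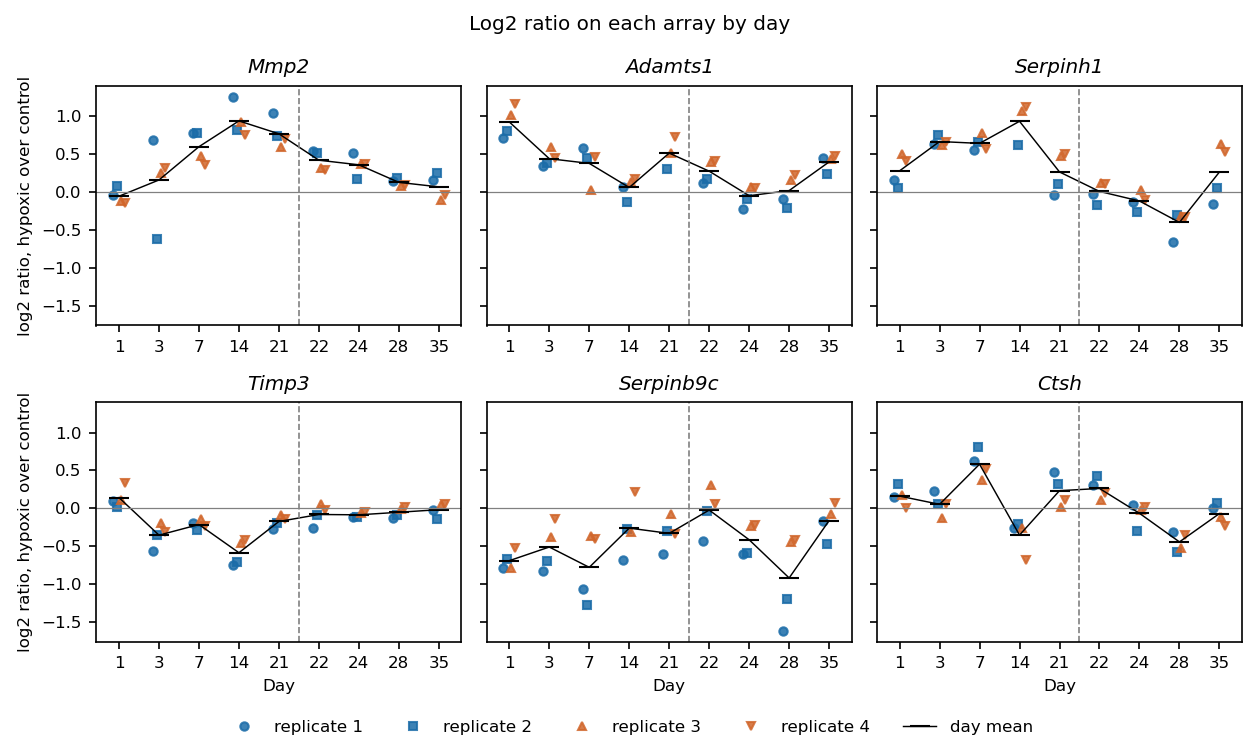
Log2 ratio of hypoxic over control lung on each array (points, up to 4 a day, blue for replicates 1 and 2 and orange for replicates 3 and 4) and the day mean (black dash and line) for 6 genes against day, the dashed line marking the return to sea-level pressure. Mmp2 climbed to 0.94 on day 14, Adamts1 started at 0.93 on day 1, Serpinh1 stood at 0.65 to 0.94 on days 3 to 14 and at -0.40 on day 28, and Ctsh was at 0.58 on day 7 and -0.35 on day 14.

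The ADAM proteases moved in both directions, with 1 of 5 higher and 2 lower, beside 24.7% and 17.7% of all features. Adam15, also called metargidin, carries an integrin-binding disintegrin domain and is made by endothelium among other cells. Its hypoxia arrays lay between -0.12 and 0.36 with a median of 0.22, 18 of 20 above 0. The day means were 0.21, 0.22, 0.26, 0.26 and 0.09 in hypoxia and -0.02, 0.00, 0.29 and -0.03 in recovery. It was therefore a small and steady difference over the first 2 weeks that returned on day 28 alone. The hypoxia mean was 0.21 ± 0.07 (SD over 5 days; adjusted p = 0.0060), with 0.19 in replicates 1 and 2 and 0.23 in replicates 3 and 4, both passing. Days 1, 3, 7, 14 and 28 passed singly. Day 28 no longer passed (0.20, adjusted p = 0.071) without day 28 replicate 1.

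Adam17, the TNF-alpha converting enzyme, was the lowest of the ADAMs. Its 18 hypoxia arrays spread widely, between -1.44 and 0.71 with a median of -0.35, and 13 of them were below 0. Day means were -0.51 (2 arrays), -0.32, -0.48, -0.56 and 0.07 in hypoxia and -0.16, -0.43, -0.79 and -0.26 in recovery. The hypoxia mean of -0.36 ± 0.26 (SD over 5 days) passed with an adjusted p of 0.010. It rested more on replicates 3 and 4 (-0.54, adjusted p = 0.00048) than on replicates 1 and 2 (-0.18, adjusted p = 0.30), and without replicate 4 of each day it was -0.23 and did not pass. In recovery Adam17 averaged -0.41 ± 0.28 (SD over 4 days), with 14 of 15 arrays below 0, and missed the threshold narrowly (adjusted p = 0.050005). On day 28 its arrays agreed, at -0.89, -0.76, -0.65 and -0.86 (adjusted p = 0.00080).

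Adam10, the closest relative of Adam17 and a sheddase of Notch and cadherins, was lower by a small amount. Its arrays lay between -0.44 and 0.11 (median -0.10, 16 of 20 below 0), and its day means were -0.15, -0.03, -0.23, -0.14 and -0.08 in hypoxia against 0.05, -0.08, -0.08 and -0.03 in recovery. The phase mean was -0.13 ± 0.08 (SD over 5 days; adjusted p = 0.025). Replicates 1 and 2 gave -0.24 and replicates 3 and 4 only -0.01 (adjusted p = 0.83), so the difference stood in 1 pair. The call was also lost without replicate 1 (-0.07) or 2 (-0.11), or without day 1, 7 or 14. Of its spots, 1 averaged -0.21 over hypoxia and the other 0.01.

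Adam8 and Adam19 did not pass over hypoxia (0.06 and -0.08) or recovery (0.02 and -0.07). Adam8, a protease of neutrophils, macrophages and other leukocytes, was chosen after its values were seen because of day 7, when its arrays read 0.57, 0.95, 0.49 and 0.64 (adjusted p = 1.5e-07), while no other day passed and day means there ran between -0.22 and 0.21. Its 9 day means differed among themselves by the F test (adjusted p = 6.1e-06).

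Among the 8 ADAMTS genes 2 (25%) rose and none fell, where 24.7% of all features were higher and 17.7% lower. Adamts1 cuts the proteoglycans versican and aggrecan and restrains new vessel growth. Its 19 hypoxia arrays lay between -0.13 and 1.16 with a median of 0.45, and 18 were above 0. The day means were 0.93, 0.44, 0.38, 0.06 and 0.52 in hypoxia and 0.28, -0.04, 0.02 and 0.40 in recovery. On day 1 its arrays read 0.72, 0.81, 1.02 and 1.16, on day 14 they lay between -0.13 and 0.17, and on day 35 they read 0.45, 0.24, 0.44 and 0.48. The gene was thus highest at the first time point, at control level on day 14 and above control again on day 21 and on the last day of recovery. The phase mean was 0.47 ± 0.31 (SD over 5 days), or 1.38-fold (adjusted p = 0.0031), with 0.38 in replicates 1 and 2 and 0.53 in replicates 3 and 4, both passing. Days 1 (adjusted p = 2.6e-09), 3, 7, 21 and 35 passed singly. Recovery averaged 0.17 ± 0.21 (SD over 4 days; adjusted p = 0.32).

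Adamts17, known for its link to fibrillin microfibrils, averaged 0.21 ± 0.16 over hypoxia (SD over 5 days; adjusted p = 0.011) and 0.09 in recovery, with a day 1 mean of -0.05 and a highest mean of 0.41 on day 14. The value came from replicates 3 and 4 (0.39) and not from replicates 1 and 2 (0.03, adjusted p = 0.70), and from 1 of its 3 spots (0.51, against 0.08 and 0.00). Without replicate 3 it was 0.14 and did not pass.

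The other ADAMTS genes stayed within 0.04 of 0 over hypoxia: Adamts4 (0.00 over hypoxia and -0.05 over recovery) and Adamts9 (-0.01 and -0.01), which cut aggrecan and versican, Adamts10 (-0.04 and -0.14), Adamts12 (0.04 and -0.05), Adamts19 (0.04 and 0.02) and Adamtsl1 (0.03 and 0.00), an ADAMTS-like protein without a protease domain. Adamts10 was below 0 on all 16 recovery arrays (adjusted p = 0.10), at -0.15, -0.14, -0.15 and -0.12 on the 4 days, and it passed on day 1 (-0.24, adjusted p = 0.0089). Adamts19 was split by pair, at -0.34 in replicates 1 and 2 and 0.41 in replicates 3 and 4.

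**Figure D3:**
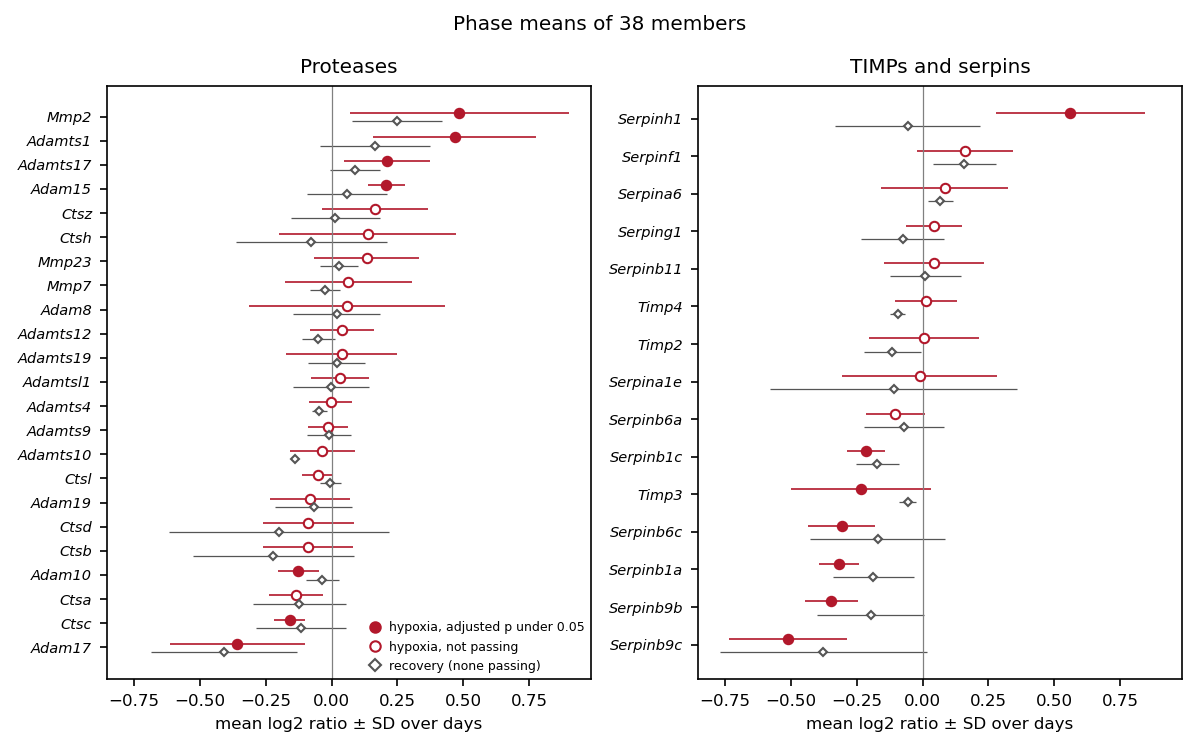
Mean log2 ratio of hypoxic over control lung with its SD over days for each gene, over the 5 days of hypoxia (red circles, filled where the adjusted p was below 0.05) and the 4 days of recovery (grey diamonds, none passing). Hypoxia means run between -0.36 (Adam17) and 0.49 (Mmp2) for the proteases on the left and between -0.51 (Serpinb9c) and 0.56 (Serpinh1) for TIMPs and serpins on the right.

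Of the 7 cathepsins, Ctsc alone passed over hypoxia, and it was lower. Ctsc, or dipeptidyl peptidase 1, activates the serine proteases of neutrophils, mast cells and cytotoxic lymphocytes. Its hypoxia arrays lay between -0.36 and 0.05 (median -0.16, 17 of 20 below 0), with day means of -0.16, -0.23, -0.08, -0.14 and -0.20, followed by 0.04, 0.03, -0.28 and -0.25 in recovery. It was near control on the first recovery days and lower again on days 28 and 35, both of which passed. The hypoxia mean was -0.16 ± 0.06 (SD over 5 days; adjusted p = 0.027). Replicates 1 and 2 gave -0.20, which passed, and replicates 3 and 4 gave -0.11 (adjusted p = 0.14). The call was lost as well without replicate 1 of each day, or without day 1, 3, 14 or 21, although the mean stayed between -0.14 and -0.17 in those cases.

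The other cysteine cathepsins had hypoxia means of -0.09 (Ctsb), 0.14 (Ctsh), -0.05 (Ctsl) and 0.16 (Ctsz), and recovery means of -0.22, -0.08, -0.01 and 0.01 in that order. Ctsb, Ctsl and Ctsz are lysosomal proteases of many cell types, and Ctsh is also found in type II pneumocytes, where it processes surfactant protein precursors. The remaining pair, the serine carboxypeptidase Ctsa (-0.14 over hypoxia and -0.12 over recovery) and the aspartic protease Ctsd (-0.09 and -0.20), did not pass either. Ctsa came nearest of the pair, with an adjusted p of 0.076, arrays between -0.53 and 0.27 (median -0.13, 14 of 20 below 0) and day means of -0.28, -0.01, -0.08, -0.19 and -0.12. Its pairs differed, at 0.02 in replicates 1 and 2 and -0.29 in replicates 3 and 4 (adjusted p = 0.0012).

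Ctsh changed direction within hypoxia, a pattern picked after its values were seen. On day 7 its arrays read 0.62, 0.81, 0.38 and 0.52 (adjusted p = 1.8e-06), on day 14 they read -0.26, -0.20, -0.26 and -0.68 (adjusted p = 0.0019), and on day 28 they read -0.32, -0.57, -0.52 and -0.35 (adjusted p = 0.00012). All 4 arrays were on 1 side of 0 on each of these days. Ctsz was likewise higher on day 7 (0.61, 0.53, 0.29 and 0.16; adjusted p = 0.0035) and passed on no other day.

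On day 28, a week after the return to sea-level pressure, 5 of the 7 cathepsins were lower than control and none was higher. Of all features 13.5% were lower that day and 18.6% higher. Ctsb read -0.98, -0.49, -0.47 and -0.71 on the 4 arrays (mean -0.66, adjusted p = 1.7e-06). Ctsd read -1.63, -0.30, -0.56 and -0.77 (mean -0.82, adjusted p = 6.4e-05). All 4 arrays were below 0 for both genes, and replicate 1 was the lowest in both. Ctsh (-0.44), Ctsa (-0.37) and Ctsc (-0.28) passed as well, while Ctsz (-0.24) and Ctsl (-0.05) did not. A week later Ctsb (0.03), Ctsd (0.09), Ctsh (-0.07) and Ctsa (-0.04) were close to control.

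Over all 38 genes 13 were lower and 1, Adam15, was higher on day 28. The lower share is 34.2%, against 13.5% of all features lower that day, and the higher share 2.63%, against 18.6%. Besides the cathepsins, the lower genes were Adam17, Serping1, Serpinh1, Serpinb1a, Serpinb6a, Serpinb6c, Serpinb9b and Serpinb9c. Day 28 replicate 1 had the largest SD of the arrays of that day (0.49). Without it, in a setting added after the data were seen, 9 of 37 genes were lower and none higher (24.3% lower, against 8.22% of all features). The 9 were Adam17 (-0.76), Ctsb (-0.56), Ctsc (-0.37), Ctsd (-0.55), Ctsh (-0.48), Serpinb6a (-0.23), Serpinb6c (-0.29), Serpinb9b (-0.41) and Serpinb9c (-0.68). Of the cathepsins, 4 thus passed without that array and Ctsa did not (-0.31, adjusted p = 0.064).

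Markers of other cells moved on the same days. Beside them, 17.7% of all features were lower over hypoxia and 13.5% on day 28. The arrays measured 4 of 12 macrophage markers, and 3 of them were lower over hypoxia (Cybb -0.62, Fcgr3 -0.33, Fcgr1 -0.27). Lyz2 averaged -0.05, but it passed as lower on day 1 (-0.56) and as higher on day 7 (0.55). The mean over these 4 ran between -0.40 and -0.14 on hypoxia days and between -0.29 and 0.04 on recovery days, and 2 of the 4 passed as lower on day 28. Of 3 neutrophil markers, 2 were lower on day 28, S100a9 (-2.97) and Lcn2 (-0.79), and the mean over the 3 ran between -0.996 and 0.63 in hypoxia and between -1.33 and 0.38 in recovery. Of the 4 measured markers of lung epithelium 2 were lower on day 28 (Slc34a2 -0.83, Sftpd -0.45), and their mean ran between -0.25 and 0.00 in hypoxia and between -0.39 and 0.01 in recovery. Of the mast cell markers only Kit was measured (-0.35 over hypoxia and -0.31 over recovery), and none of the 8 for NK and cytotoxic T cells was. The part of these cell types in the protease values was not tested. In RNA from whole lung, fewer cells of a type and less RNA per cell cannot be told apart.

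TIMPs, the natural partners of Mmp2 and the ADAMTS enzymes, were represented by Timp2, Timp3 and Timp4; Timp1 was not analysed here. Timp3, which binds to the matrix and inhibits Adam17 and several ADAMTS enzymes as well as Mmps, was the 1 that passed, and it was lower. Its hypoxia arrays lay between -0.74 and 0.33 with a median of -0.21, and 16 of 20 were below 0. The day means were 0.14, -0.35, -0.21, -0.58 and -0.17 in hypoxia and -0.08, -0.08, -0.05 and -0.02 in recovery. As the average of its spots, day 1 was thus above control on all 4 arrays (0.10, 0.02, 0.12 and 0.33; adjusted p = 0.10). The lowest point came on day 14, with -0.74, -0.71, -0.46 and -0.42 (adjusted p = 1.1e-08). Days 3 (adjusted p = 7.7e-05) and 7 (0.0065) also passed. The phase mean was -0.23 ± 0.27 (SD over 5 days; adjusted p = 0.026). It no longer passed without day 3 (-0.21), day 7 (-0.24) or day 14 (-0.15), or in replicates 3 and 4 alone (-0.15, against -0.32 in replicates 1 and 2).

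The 2 spots of Timp3 both passed as lower on days 3 (-0.51 and -0.20) and 14, and differed elsewhere. Spot A averaged -0.38 over hypoxia (adjusted p = 0.0011 with each spot tested on its own) and spot B -0.09 (adjusted p = 0.50). On day 1 spot A gave -0.12 (adjusted p = 0.62) and spot B 0.41 (adjusted p = 0.00017). On day 14 they gave -0.55 and -0.61, and on day 28 they gave -0.38 and 0.28, each passing in its own direction. The near-zero Timp3 mean of day 28 is therefore an average of opposite values.

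Timp2, which both inhibits Mmp2 and helps to activate its precursor on the cell surface, averaged 0.01 ± 0.21 over hypoxia and -0.12 ± 0.11 over recovery and did not pass. Its hypoxia arrays lay between -0.39 and 0.46 (median -0.03), with day means of -0.24, 0.12, -0.13, 0.29 and -0.01 in hypoxia and -0.22, -0.08, -0.18 and 0.02 in recovery. Day 14 passed (0.42, 0.04, 0.39 and 0.32; adjusted p = 0.011). On that day Mmp2 and Timp2 were higher and Timp3 was lower in hypoxic lung. Timp4 stayed near control, at 0.01 ± 0.12 over hypoxia (arrays between -0.36 and 0.33, median 0.01) and -0.09 ± 0.03 over recovery, with day means of -0.01, -0.02, 0.21, -0.10 and -0.02, then -0.09, -0.06, -0.11 and -0.13. No day passed for it.

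Serpinh1, known as HSP47, binds procollagen in the endoplasmic reticulum and is needed for its folding, so it is read here beside collagen and not beside the inhibitors. Of all 38 genes it had the largest hypoxia mean in size, 0.56 ± 0.28 (SD over 5 days), or 1.47-fold (adjusted p = 0.0014). Its 19 hypoxia arrays lay between -0.03 and 1.12 with a median of 0.58, and 18 were above 0. Day means were 0.28, 0.67, 0.65, 0.94 and 0.27 in hypoxia and 0.01, -0.11, -0.40 and 0.27 in recovery. On day 3 the arrays read 0.64, 0.76, 0.62 and 0.66, and on day 14 the 3 arrays with a value read 0.62, 1.07 and 1.12. On day 28 they read -0.65, -0.30, -0.31 and -0.32 (adjusted p = 0.0034), all below 0, and without the first of these the mean was -0.31 (adjusted p = 0.063).

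The rise of Serpinh1 was present in replicates 1 and 2 (0.42) and in replicates 3 and 4 (0.67), both passing. It was the 1 gene of 38 whose hypoxia day means all lay above its recovery day means, by a narrow margin (0.269 on day 21, the lowest, against 0.268 on day 35, the highest). The difference between its phases was 0.62 ± 0.15 (SE), the largest among the 38 genes, yet it did not pass over all features (adjusted p = 0.11). The fibrillar collagen genes Col1a1, Col1a2 and Col3a1, its clients, averaged 0.64, 0.57 and 0.71 over hypoxia, all passing, and -0.13, 0.04 and 0.28 over recovery. On day 28 Col1a1 was at -0.75 and passed, Col1a2 was at -0.20 and did not, and Col3a1 was at 0.18 and passed as higher. Of the 7 fibroblast markers 3, these collagens, were higher over hypoxia and 2 lower (Dcn -0.84 and Pdgfra -0.22), their mean running between -0.18 and 0.35 on hypoxia days and between -0.31 and 0.18 on recovery days.

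None of the 4 secreted serpins passed over a phase. Serpinf1, or pigment epithelium-derived factor, an inhibitor of vessel growth that traps no protease, came nearest, with 0.16 ± 0.18 over hypoxia (SD over 5 days; adjusted p = 0.058) and 0.16 ± 0.12 over recovery. Its hypoxia arrays lay between -0.32 and 0.55 (median 0.14, 14 of 19 above 0), with day means of -0.11, 0.15, 0.39, 0.20 and 0.17, then 0.09, 0.29, 0.23 and 0.03, and day 7 passed (adjusted p = 0.00055). Serping1, the C1 inhibitor of the complement and kinin systems, averaged 0.04 and -0.08, was lower on day 28 (-0.31, adjusted p = 0.046) and was split by pair over hypoxia, at 0.27 in replicates 1 and 2 and -0.18 in replicates 3 and 4, each passing. Serpina6, the corticosteroid-binding globulin, averaged 0.08 and 0.07.

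Serpina1e, one of the mouse alpha-1 antitrypsins and chiefly a liver product, averaged -0.01 and -0.11 and is described because of its swings, seen first in the values. It was lower on day 1 (-0.39, -0.10, -0.29 and -0.67; adjusted p = 0.039) and on day 24 (-0.38, -0.76, -0.54 and -0.44; adjusted p = 0.014) and higher on day 35 (0.76, 0.90, 0.39 and 0.20; adjusted p = 0.0050). On each of these days all 4 arrays were on 1 side of 0. The day 24 value was the single pass among the 38 genes on that day, when 2.12% of all features passed as lower. The mouse holds several near-identical Serpina1 genes, so the spot may read more than 1 of them.

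Of the 7 clade B serpins tested, 5 were lower over hypoxia and none was higher, where 17.7% of all features were lower. The median of the 7 was -0.31, beside 0.03 for all features, and Serpinb6a and Serpinb11 did not pass. Serpinb1 is an inhibitor of neutrophil elastase, cathepsin G and proteinase 3, and Serpinb9 of granzyme B, and the mouse has several copies related to each. The 5 that fell, Serpinb1a, Serpinb1c, Serpinb6c, Serpinb9b and Serpinb9c, lie in a cluster on chromosome 13 that holds 16 protein-coding Serpinb genes in RefSeq, 7 of them measured here. The others measured there were Serpinb6a, at -0.10 over hypoxia (adjusted p = 0.15) and -0.07 over recovery, and Serpinb9, whose 2 values, both on day 3, were 0.28 and 2.03. Serpinb11, which lies on chromosome 1, averaged 0.04 and 0.01. Related transcripts can bind the same cDNA spot, so which copies gave these signals is uncertain.

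Serpinb9c had the lowest mean, -0.51 ± 0.22 (SD over 5 days), or 0.70 times control (adjusted p = 0.0034). Its hypoxia arrays lay between -1.27 and 0.22 (median -0.46, 19 of 20 below 0), with day means of -0.69, -0.51, -0.78, -0.26 and -0.33. In recovery they were -0.02, -0.41, -0.92 and -0.16, so it was at control level on the first day back and lowest of all days a week after the return. The pairs differed in size, on day 7 with -1.07 and -1.27 in replicates 1 and 2 and -0.36 and -0.40 in replicates 3 and 4, and on day 28 with -1.61 and -1.19 and with -0.44 and -0.42. Both pairs passed over hypoxia (-0.72 and -0.31).

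Serpinb9b averaged -0.35 ± 0.10 (SD over 5 days; adjusted p = 0.0014), its arrays lying between -0.71 and 0.11 (median -0.36, 18 of 20 below 0) and its day means at -0.34, -0.36, -0.46, -0.39 and -0.19, then -0.03, -0.24, -0.47 and -0.06. Its spots did not agree: spot A averaged -0.56 and spot B -0.09 (adjusted p = 0.16 on its own). Spot A gave -0.97 on day 28, close to the -0.92 of Serpinb9c, while spot B gave 0.03.

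Serpinb1a passed on each of the 5 hypoxia days. Its arrays lay between -0.68 and 0.07 (median -0.33, 19 of 20 below 0), and its day means were -0.28, -0.29, -0.33, -0.44 and -0.25 in hypoxia, then -0.12, -0.03, -0.21 and -0.39, of which days 28 and 35 passed. The hypoxia mean of -0.32 ± 0.08 (SD over 5 days) had the lowest adjusted p of the 38 genes (0.00081). The recovery mean was -0.19 ± 0.15 (SD over 4 days; adjusted p = 0.068). Serpinb1c averaged -0.22 ± 0.07 (SD over 5 days; adjusted p = 0.0020) on arrays between -0.62 and 0.17 (median -0.16, 16 of 20 below 0), with day means of -0.22, -0.18, -0.19, -0.34 and -0.15, then -0.07, -0.26, -0.21 and -0.15. That mean came from 1 spot (-0.42), the other being at -0.03.

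Serpinb6c averaged -0.31 ± 0.13 (SD over 5 days; adjusted p = 0.0057), on arrays between -0.60 and 0.01 (median -0.32, 18 of 19 below 0). Its day means were -0.40, -0.34, -0.45, -0.21 and -0.14 in hypoxia and 0.00, -0.15, -0.54 and 0.01 in recovery. On day 28 its arrays were spread, at -1.27, -0.53, -0.22 and -0.14. All 5 genes passed in each array pair, and over recovery they had means between -0.38 and -0.17, with adjusted p between 0.054 and 0.18. Beside this list, 3 of the 4 macrophage markers and Kit, the 1 mast cell marker measured, were also lower over hypoxia, with the values given above. Of 3 measured neutrophil markers 1 was higher (Ltf 0.68) and 1 lower (S100a9 -1.51). The part of those cells in the serpin values was not tested.

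**Figure D4:**
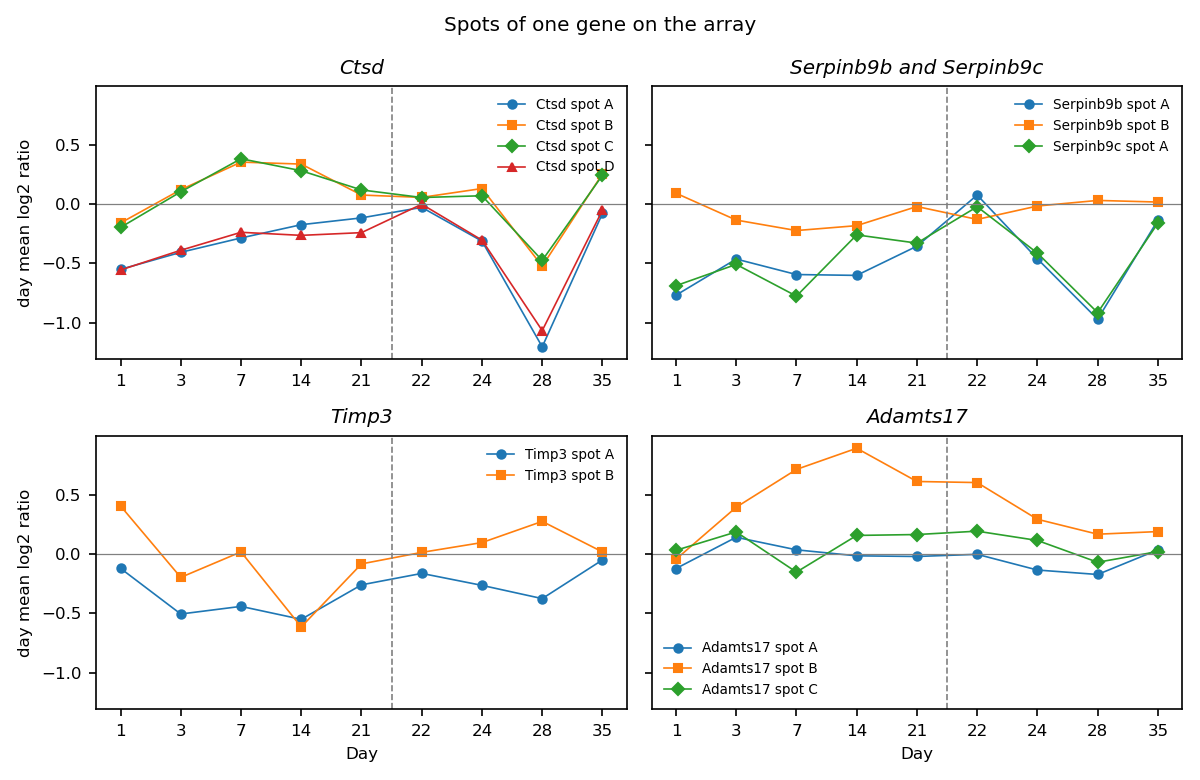
Day mean log2 ratio of hypoxic over control lung for each spot of Ctsd, Serpinb9b with Serpinb9c, Timp3 and Adamts17 against day, the dashed line marking the return to sea-level pressure. The 4 Ctsd spots form 2 pairs, at 0.15 and 0.14 and at -0.31 and -0.34 over hypoxia, and all are low on day 28; Serpinb9b spot A (-0.97 on day 28) runs with Serpinb9c, spot B (0.03) does not.

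The values of genes with several spots depend on which spot is read. Of the 14 genes that passed over hypoxia, 8 had 1 spot. Each of the other 6, Adam10, Adamts17, Ctsc, Serpinb1c, Serpinb9b and Timp3, had exactly 1 spot that passed when spots were tested alone; the other spot of Adam10 had too few values to be tested over hypoxia. Ctsd shows the same among genes that did not pass: its spots averaged -0.31, 0.15, 0.14 and -0.34, the last with an adjusted p of 0.039. On day 28 all 4 Ctsd spots were lower (-1.20, -0.52, -0.47 and -1.07) and all passed. The spots' sequences were not used here, so whether they read different transcripts was not tested.

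After the return to sea-level pressure no gene of the 38 passed over the 4 recovery days in limma, where 4.77% of all features did. At an unadjusted p below 0.05 there were 8, and the lowest adjusted p was that of Adam17. The median of the 38 was -0.06, beside 0.02 for all features, with 27 genes below 0. The difference between the phases passed for none of the 38 (1, Serpinh1, at an unadjusted p below 0.05) and for 0.0329% of all features, and the step between day 21 and day 22 passed for none (4 at an unadjusted p below 0.05) and for 0.609%. On day 22 itself none passed (7 at an unadjusted p below 0.05), while 0.805% of all features were higher and 0.756% lower. The recovery count depended on the scale, the unit and the arrays used: 7 genes, all lower, passed with the arrays scaled to a common spread, 14 (3 higher and 11 lower) with the 36 arrays as the unit, and 3, all lower, in each array pair alone. Counts of all features rose under these settings too, from 201 higher and 379 lower of 12159. They were 1432 and 1768 at a common spread and 2262 and 1807 with the arrays as the unit. Replicates 1 and 2 alone gave 563 and 540, and replicates 3 and 4 alone 914 and 695. The missing passes do not show that these genes were back at control level.

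By single days, 2 genes were higher and 9 lower of 37 on day 1, where 10.6% and 9.04% of all features were, so that the lower share was 24.3%. On day 3 there were 3 higher and 6 lower of 38 (7.89% and 15.8%), against 13.3% and 9.96% of all features. Day 7 had 9 higher and 7 lower of 37 (24.3% and 18.9%), against 20.4% and 15.5%. Day 14 had 5 higher and 6 lower of 38 (13.2% and 15.8%), against 15.5% and 12.2%. The shares of these genes thus lay within 10 percentage points of the background on days 3, 7 and 14. On day 21, 2 were higher (Mmp2 and Adamts1) and 1 lower (Serpinb1a), beside 2.22% and 2.3% of all features. In recovery, day 24 had 0 higher and 1 lower, beside 0.786% and 2.12%, and day 35 had 2 higher (Adamts1 and Serpina1e) and 2 lower (Ctsc and Serpinb1a), beside 1.81% and 1.36%. On day 1 the 9 lower genes were Adamts10, Ctsa, Ctsb, Serpina1e, Serpinb1a, Serpinb6a, Serpinb6c, Serpinb9b and Serpinb9c, so 6 of them were serpins. Day 7 was the day with the most higher genes, 7 of them proteases (Mmp2, Mmp23, Adam8, Adam15, Adamts1, Ctsh and Ctsz). The F test over the 9 days passed for 15 of 38 genes (39.5%, against 22.3% of all features): Adam15, Adam8, Adamts1, Ctsb, Ctsc, Ctsd, Ctsh, Ctsz, Mmp2, Serpina1e, Serpinb1a, Serpinb9c, Serpinh1, Timp2 and Timp3.

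Other genes of the protease systems were set beside these. Of all features 24.7% were higher over hypoxia and 17.7% lower. Of 5 measured genes around plasminogen and thrombin, F2r, the thrombin receptor PAR1, was lower over hypoxia (-0.96, adjusted p = 0.00063), Proc, the precursor of activated protein C, was higher (0.24) and Plat (-0.13), Plaur (0.14) and Procr (0.05) did not pass. All 3 measured metalloendopeptidases outside the rule were lower: Mme, or neprilysin (-0.41), Ece1, which makes mature endothelin (-0.25), and Bmp1, the procollagen C-proteinase (-0.15). Of 2 proprotein convertases Pcsk5 was higher (0.23) and Pcsk6 (-0.01) did not pass. Of 8 other proteases 3 were higher (Bace1 0.24, Lgmn 0.18, Hpn 0.18) and 3 lower (Tpp1 -0.29, Dpp7 -0.16, Dpp4 -0.15). A list of other inhibitors and genes related to them had 11 genes tested, and not each need inhibit a protease. Of these 3 were higher (Spock2 0.53, Pebp1 0.19, Cstb 0.18). The cathepsin propeptide-like Ctla2a and Ctla2b were the 2 that were lower (-0.66 each), while Cst3 (0.08), A2m (-0.01) and Tfpi (-0.03) did not pass.

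Endothelial and smooth muscle markers are set beside Mmp2, Adamts1 and Adam15, with 24.7% of all features higher over hypoxia. Both measured endothelial markers were higher over hypoxia (Emcn 0.66, Cdh5 0.27), their mean running between 0.24 and 0.62 on hypoxia days and between -0.02 and 0.59 on recovery days. Of 3 smooth muscle markers 2 were higher (Cald1 0.38, Myl9 0.30), and Cnn1 (0.10) did not pass, the mean running between 0.13 and 0.40 in hypoxia and between -0.30 and 0.03 in recovery. Their part in the values of those proteases was not tested.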

How the data were processed

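The study's 36 spotted arrays compared pooled whole-lung RNA of hypoxic and control BALB/c mice, 4 arrays a day on 9 days. Per the labels, scans from a GenePix 4000A were read with GenePix Pro 4.0, background corrected, stripped of flagged spots and lowess normalised, and the authors deposited log2 ratios of median intensities. They were used as deposited. Channel intensities were not used, so the number of arrays sets the precision.

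Of 15388 spots, the platform annotation gave 9598 a single symbol, 514 several and 5276 none. The Entrez identifiers of all 52 spots of the 39 genes matched RefSeq GRCm38.p6, with the same symbols. Averaging the spots of each gene within an array left 12761 features. In limma 3.58.1 (R 4.3.3), phase means and their difference were fitted on 9 day means, for features with at least 2 arrays at each day. Single days and day 22 minus day 21 were fitted on the 36 arrays, for features with at least 3 arrays on each day concerned. The moderated F test over days also used the 36 arrays, for features with at least 2 arrays at each day. All tests were two-sided, adjusted by Benjamini-Hochberg over all features, with a threshold of 0.05. The fits were checked on simulated data.

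The genes, lists, tests and alternatives were chosen with earlier results of these data known. Values by array or day are given for genes that passed over hypoxia with 1 sign on all its days, for the TIMPs, and for the gene of lowest p in each group without one; others described in full were picked after their values were seen. Alternatives covered centring, scaling, missing values, the array pairs, single spots, left-out days and replicates, and arrays as the unit. Same-numbered arrays did not deviate together throughout (126 of 144 correlations of deviations over 0.1, the lowest -0.15), so the main fits did not pair samples by number. Deviations from the day mean correlated across days at a median of 0.38 for the same number. The median was 0.40 for the other number of the same array pair, and -0.24 over all other numbers with that one included. The array pairs thus recurred across days. A difference between them shared by all days does not enter the SD over days.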

Additional observations from a re-analysis of the deposited data

Results flagged for a closer look

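In 7 groups of values 1 stood apart from the others by Dixon's test at the 95% level. The groups tested were 76 phase groups of the 38 genes and 67 single-day groups that had passed with a value on all 4 arrays. Chance flags about 1 in 20 groups not chosen by their values. That rate need not hold for the single-day groups. Among day means, Adam15 on day 28 (0.285) stood above the other 3 recovery days, and Serpina6 on day 7 (0.504), a mean of 2 arrays, stood above the other 4 hypoxia days. Among single arrays, replicate 2 of day 3 for Adam15 (-0.120) lay below the other 3, as did replicate 2 of day 35 for Adamts1 (0.244), replicate 4 of day 14 for Ctsh (-0.684) and replicate 1 of day 28 for Serpinh1 (-0.653). Replicate 4 of day 7 for Serpinb9b (0.111) lay above the other 3 of that day.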

How the results depend on the processing

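For the 14 genes that passed over hypoxia, 301 values under other settings, single spots not among them, never changed sign. Of these values 281 kept their side of the threshold. In 9 genes (Adam15, Adamts1, Mmp2, Serpinb1a, Serpinb1c, Serpinb6c, Serpinb9b, Serpinb9c and Serpinh1) every setting that tested the gene passed, and the 20 lost calls were those of Adam10, Adam17, Adamts17, Ctsc and Timp3. Adam15, Adamts1, Serpinb6c and Serpinh1 lacked a value on an array and were not tested where one was required on every array. Tested alone, spot B of Serpinb1c (-0.03, adjusted p = 0.72) and of Serpinb9b (-0.09, adjusted p = 0.16) did not pass. Where a value on every array was required, 9 of 23 genes tested passed over hypoxia, beside 2054 higher and 1609 lower of 7556 features. Replicates 1 and 2 alone gave 17 of 37 (2606 and 2166 of 12129 features). Replicates 3 and 4 alone gave 18 of 38 (3541 and 2745 of 12072). With the 36 arrays as the unit 20 of 38 passed (3551 and 2687 of 12159), and without a replicate of every day 12 to 15. In the main fit the number of genes that passed over hypoxia was 14 of 38 (3000 and 2152 of 12159). Over recovery it was 0, 1 with each array centred on its median, with a value on every array, with each spot on its own, without day 21 or without day 28 replicate 1, 7 with arrays scaled to a common spread, 3 in each array pair alone, 14 with the 36 arrays as the unit, and 0 to 2 without a replicate. For the difference of phases it was 0, and 6 with the 36 arrays as the unit. All features gave 4 higher and 0 lower of 12159 in the main fit, and 996 and 1049 with the arrays as the unit. The F test over days passed for 15 genes, for 8 to 11 without a replicate and for 12 without day 28 replicate 1. In all features it passed for 2709, for 1212 to 1658 without a replicate and for 2451 without day 28 replicate 1. Day 22 minus day 21 passed for 0 genes, and 1 at a common spread. All features gave 45 higher and 29 lower of 12150 there, and 80 and 46 at a common spread. The 69 passes on single days stood between 51 and 101 under all settings. With the replicate number as a block, 22 genes passed over hypoxia, 17 over recovery, 7 in the difference, 21 in the F test and 101 on single days. Of 12159 features, 3953 were then higher and 2952 lower over hypoxia, and 2922 and 2206 over recovery. In the difference 1466 were higher and 1467 lower, and 4164 passed in the F test. Only 11 of 36 arrays correlated best with their own number. Counts of all features over recovery also rose at a common spread, in each array pair and with the arrays as the unit. The causes were not tested. Fewer than 3 arrays with a value kept a gene out of a day's test.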

Other observations

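The array pairs opposed each other in 3 genes. Mmp7 (-0.35 in replicates 1 and 2, 0.45 in replicates 3 and 4), Adamts19 (-0.34 and 0.41) and Serping1 (0.27 and -0.18) each passed over hypoxia in both pairs with opposite sign. That is 8.11% of the 37 genes tested in both pairs, beside 6.92% of all features, and 9 genes passed in both with the same sign (24.3%, beside 15.6%). The sign of the hypoxia mean was the same in both pairs for 22 of the 37 genes (59.5%) and for 56.8% of all features. Over hypoxia the arrays of Mmp7 ran between -1.10 and 1.06 and those of Adamts19 between -1.32 and 1.13.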
